A study of Mus musculus with 10 samples.

Results

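Sortilin family receptors are the proteins that carry a Vps10p domain, and 5 mouse genes encode them: Sorcs1, Sorcs2, Sorcs3, Sort1 and Sorl1. These 5 genes were taken by symbol from a table of 52227 genes, and all 5 were among the 21664 genes with enough counts to be tested. Sorcs1 led to the choice of the family because it was higher in every mutant than in every wild-type library, so its genotype difference is given here as a description without a test. The other 4 genes were added for their kinship, and their differences were tested.

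RNA-seq was performed on cortical hem (CH), the signaling center at the medial edge of the developing cortex, cut out by laser capture from mouse embryos at e13.5. The groups were 5 wild-type and 5 Lmx1a-/- embryos, and each library held the pooled CH sections of 1 embryo. Lmx1a encodes a LIM-homeodomain transcription factor made in CH. The mutants carried the dreher J (drJ) allele, a spontaneous point mutation that leaves an inactive protein, and the colony had a mixed C57Bl6/FVB/CD1 background. The design compares mutant with wild-type CH and so asks how transcript levels differ when Lmx1a function is lost. The mutation was present in the whole embryo and not in CH alone.

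Vps10p-domain receptors are transmembrane proteins that bind ligands and cargo and move them between the Golgi, endosomes and the cell surface. Sortilin (Sort1) and SorCS proteins act with the neurotrophin receptor p75 as receptors of pro-neurotrophins, the uncleaved precursors of nerve growth factor and its relatives. In neurons, SorLA (Sorl1) carries amyloid precursor protein with the retromer complex, SorCS1 sorts AMPA receptors, and sortilin clears progranulin. None of these functions was measured here, since the data are transcript counts.

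Library totals lay between 19145952 and 36462780 counts. Lmx1a itself was transcribed in both groups, with 71.2 ± 18.2 normalized CPM in wild type and 114 ± 21.0 in Lmx1a-/- (SD, n = 5 each), and gene counts do not separate the drJ from the normal allele. All 10 CH markers checked were detected in every library, and their summed level was 1326 to 2325 CPM in wild type and 1485 to 1756 in mutants. Wnt8b led this sum, with means of 851 CPM in wild type and 920 in mutants. The sum hides that 5 of the 10 markers passed as lower in mutants and 1, Lmx1a, as higher. Wild-type embryo 1 and the 5 mutants had Y-linked transcripts (341 to 451 CPM over 4 genes), whereas wild-type embryos 2 to 5 had Xist at 4399 to 5169 CPM, so sex was unevenly spread over genotype.

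Sorcs1, a receptor that sorts synaptic proteins, had the largest log2 fold change of the 5 members, and the values that follow are those it was chosen on. Its normalized CPM (TMM-scaled counts relative to library size) in wild-type embryos 1 to 5 was 7.20, 13.3, 11.4, 12.3 and 9.90. In Lmx1a-/- embryos 1 to 5 it was 32.2, 30.3, 33.1, 44.4 and 30.6. Every mutant lay above every wild type, and the lowest mutant was 2.28 times the highest wild type. Mean levels were 10.8 ± 2.38 CPM in wild type and 34.1 ± 5.87 CPM in mutants (SD over 5 embryos), which is 3.16-fold or 1.66 on the log2 scale (SE 0.17). In bulk CH tissue, a change in the number of cells that make a transcript and a change in RNA per cell cannot be told apart.

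Between 193 and 1605 raw counts per library stood behind these Sorcs1 values. Mutant embryo 4 had the highest value, and the other 4 mutants lay within 30.3 to 33.1 CPM. Wild-type embryo 1 was the lowest of its group and the only wild type with Y-linked transcripts. The mutants, which all had Y-linked transcripts too, were 4.21 to 6.17 times higher than this embryo. With the fit restricted to those 6 libraries the log2 fold change was 2.24, and with Xist as a covariate it was 2.26. Both values rest on wild-type embryo 1 as the only wild type with Y-linked transcripts and contain the difference on which Sorcs1 was chosen, and the part of sex in it was not tested.

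**Figure D1:**
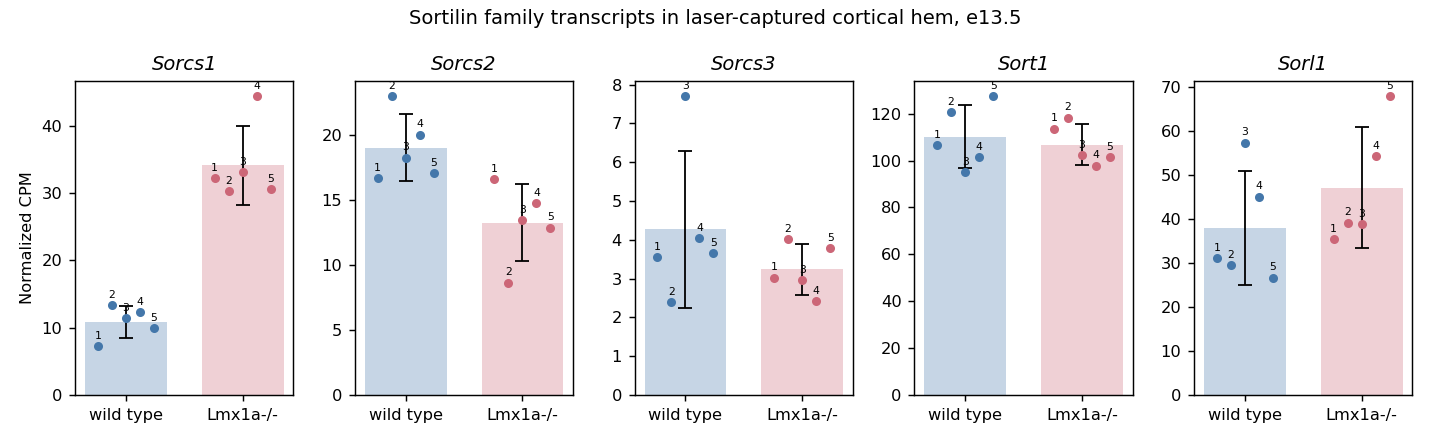
Normalized CPM (vertical axes, each starting at 0) of the 5 family members in wild-type and Lmx1a-/- CH. Numbered points are embryos, bars are means and error bars are SD (n = 5 each). Sorcs1 had no overlap between genotypes, Sorcs2 was separated by a narrow gap, and the points of Sorcs3, Sort1 and Sorl1 overlapped.

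Sorcs2, the SorCS receptor best known as a partner of p75 for pro-neurotrophins, had lower values in mutants but did not pass the test. Its CPM in wild-type embryos 1 to 5 was 16.7, 23.0, 18.3, 20.0 and 17.1. In the mutants it was 16.6, 8.64, 13.5, 14.8 and 12.9. The groups did not overlap, but the highest mutant was only 0.0941 CPM below the lowest wild type. The means were 19.01 ± 2.58 and 13.3 ± 2.95 CPM, and the log2 fold change was -0.52 (SE 0.17, 95% interval -0.87 to -0.16, FDR 0.137 by edgeR's quasi-likelihood test). This gene passed the FDR threshold of 0.1 with DESeq2 (FDR 0.0479) and when mutant embryo 1 was left out (log2 fold change -0.61, FDR 0.0957). With Xist as a covariate its log2 fold change was -0.30 (FDR 0.787), but Xist ran with genotype over the libraries (correlation -0.82). The lowest wild type was embryo 1, the only wild type with Y-linked transcripts, at 16.7 CPM and close to embryo 5 at 17.1. The part of sex was not tested.

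Sorcs3, another SorCS receptor of neurons and a neighbor of Sorcs1 on the chromosome, was the least abundant member per length. It was counted at 3.55, 2.39, 7.71, 4.05 and 3.66 CPM in wild types and at 3.03, 4.02, 2.96, 2.41 and 3.79 CPM in mutants, in order of embryo number. The groups overlapped, and wild-type embryo 3 stood above all other libraries. The log2 fold change was -0.40 (SE 0.30, 95% interval -1.05 to 0.24, FDR 0.548), so both a fall and a small rise lie within the interval. It was -0.08 without wild-type embryo 3, but -1.02 (FDR 0.246) with a choroid plexus covariate and -0.86 (FDR 0.565) with a neuroepithelium covariate. Both covariates ran with genotype over the libraries (correlations -0.72 for choroid plexus and 0.74 for neuroepithelium), so these fits do not separate tissue make-up from genotype.

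Sort1, which encodes sortilin, the receptor of neurotensin and progranulin, had nearly equal group means. Its CPM in wild-type embryos 1 to 5 was 107, 121, 95.1, 101 and 128, against 114, 118, 102.3, 97.9 and 101.6 in the mutants. The 2 groups covered almost the same range. The log2 fold change was -0.05 (SE 0.093, 95% interval -0.25 to 0.15, FDR 0.854), which makes Sort1 the member whose difference was bounded most tightly. Its sign changed with a choroid plexus or neuroepithelium covariate, both of which ran with genotype, and without wild-type embryo 5.

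Sorl1 encodes SorLA, the receptor that directs amyloid precursor protein away from cleavage. Its CPM was 31.1, 29.4, 57.3, 45.0 and 26.7 in wild-type embryos 1 to 5 and 35.3, 39.1, 38.8, 54.3 and 67.9 in the mutants. Values were scattered in both groups, with wild-type embryo 3 above 4 of the 5 mutants. The log2 fold change was 0.31 (SE 0.23, 95% interval -0.18 to 0.80, FDR 0.541), and it was -0.06 with a choroid plexus covariate, which ran with genotype. It was 0.15 without mutant embryo 5, 0.20 without wild-type embryo 5 and 0.51 without wild-type embryo 3.

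Of the 4 members other than Sorcs1, none passed the FDR threshold of 0.1 with edgeR's quasi-likelihood test. Sorcs2 was the 1 gene with an unadjusted p below 0.05, 1 passed with DESeq2 and 0 passed with edgeR's likelihood ratio test. Among all genes tested 4.02% passed the quasi-likelihood test, 1.72% as higher and 2.29% as lower in mutants, while 16.4% had an unadjusted p below 0.05, 8.15% passed with DESeq2 and 6.28% with the likelihood ratio test. Groups that did not overlap in either direction, seen here for Sorcs2 and for the selected Sorcs1, occurred in 4.44% of all genes tested.

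The members differ in length, so their levels were compared as CPM per kb of exon sequence. In wild-type CH Sort1 led with 14.6 ± 1.79 CPM per kb, followed by Sorl1 with 3.35 ± 1.15 and Sorcs2 with 2.16 ± 0.294. Sorcs1 had 1.28 ± 0.282 and Sorcs3 0.599 ± 0.283 CPM per kb. Sort1 was above Sorl1 and Sorcs1 was above Sorcs3 in 5 of 5 wild-type embryos. Sorl1 was above Sorcs2 in 4 of 5, but in only 2 of 5 when the longest transcript was used as the length, so the order of these neighbours is not settled.

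In mutant CH the order was different in the middle of the scale, and this order contains the values Sorcs1 was chosen on. Sorcs1, at 4.05 ± 0.696 CPM per kb, was above Sorcs2, at 1.51 ± 0.335, in 5 of 5 mutants, whereas it was above Sorcs2 in 0 of 5 wild types. Sorl1, at 4.16 ± 1.21 CPM per kb, and Sorcs1 had means that differed by less than the spread between embryos, although Sorcs1 was the higher in 4 of 5 mutants. Sort1 stayed at the top with 14.1 ± 1.16 and Sorcs3 at the bottom with 0.455 ± 0.0922 CPM per kb in all embryos of this group.

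Sorcs1 made up 5.81% ± 1.10 of the summed family level per length in wild type, with a range of 4.25% to 6.83%. In mutants its share was 16.7% ± 2.67, with a range of 14.5% to 21.1%. The shares of Sort1 went from 66.3% to 58.2% and those of Sorcs2 from 9.83% to 6.21%, and shares within a family are tied to each other because they add up to the whole. The summed level was 22.0 ± 1.19 CPM per kb in wild type and 24.3 ± 0.906 in mutants. Within each library the ratio of Sorcs1 to Sorcs2 CPM was 0.432 to 0.626 in wild types and 1.94 to 3.51 in mutants, a ratio that does not depend on library scaling. All of these figures contain the difference on which Sorcs1 was chosen.

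**Figure D2:**
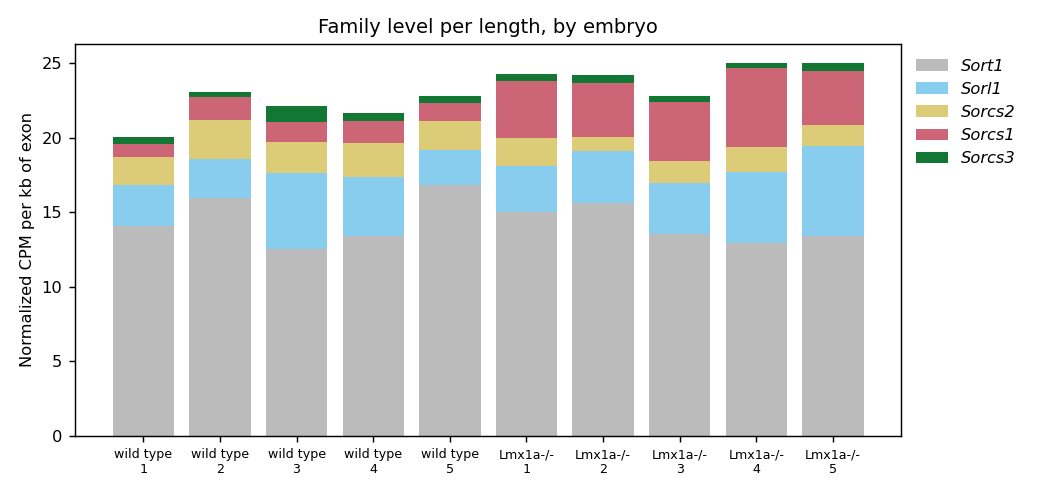
Summed level of the 5 members in each embryo, in normalized CPM per kb of exon (vertical axis), with each member as a colored segment. The Sorcs1 segment was 4.25% to 6.83% of the bar in wild types and 14.5% to 21.1% in Lmx1a-/- embryos, and Sort1 was the largest segment in all 10 bars.

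Because related genes can share reads, the annotated transcripts of the members were compared for identical runs. Sorcs1 and Sorcs3 had the longest shared run, 32 bases, and the other 9 pairs shared at most 17 bases. The run lies within coding sequence of both genes, at chr19:50252586-50252677 on the minus strand for Sorcs1 and chr19:48693857-48693948 on the plus strand for Sorcs3 (GRCm38, GENCODE M21), where these windows add 30 bases on each side. It is shown because it is the longest identical stretch in the annotated transcripts of both genes, with the shared run in capitals. How reads map to it was not examined.
Sorcs1: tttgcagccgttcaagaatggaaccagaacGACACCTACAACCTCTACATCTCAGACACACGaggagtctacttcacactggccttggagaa
Sorcs3: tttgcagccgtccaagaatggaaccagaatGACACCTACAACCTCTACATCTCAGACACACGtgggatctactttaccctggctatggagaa
Over these 92 bases the genes were identical at 83 positions (90.2%), and mismatches stand on both sides of the run. The ratio of Sorcs1 to Sorcs3 CPM was 1.48 to 5.57 in wild types and 7.54 to 18.4 in mutants. This ratio contains the difference on which Sorcs1 was chosen and does not show whether reads were shared.

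Sorcs1 (ENSMUSG00000043531) lies on the minus strand of chromosome 19 at 50143299 to 50678646, and Sorcs3 (ENSMUSG00000063434) lies on the plus strand of the same chromosome at 48206025 to 48805505, 1338 kb away. Sorcs2 (ENSMUSG00000029093) is on chromosome 5 at 36017180 to 36398139, Sort1 (ENSMUSG00000068747) on chromosome 3 at 108284082 to 108361511 and Sorl1 (ENSMUSG00000049313) on chromosome 9 at 41964720 to 42124297. Within 2 Mb of Sorcs1 the annotation lists 26 genes, of which 2 are protein-coding and 3 had enough counts to be tested. These 3 were Sorcs3, the pseudogene Rpl13a-ps1 and Gm45352, and Gm45352 alone passed the threshold.

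Gm45352 (ENSMUSG00000110007) is annotated as an antisense gene on the plus strand at 50146938 to 50180652, inside the downstream part of Sorcs1. Its raw counts in wild-type embryos 1 to 5 were 7, 9, 26, 5 and 11, and in the mutants they were 79, 56, 64, 96 and 69. No mutant count overlapped a wild-type count. Normalized levels were 0.420 ± 0.206 CPM in wild type and 2.58 ± 0.322 in mutants, with a log2 fold change of 2.58 (SE 0.36, FDR 0.00249). Per 100 Sorcs1 counts there were 3.92 ± 1.72 Gm45352 counts in wild types (2.11 to 6.68) and 7.72 ± 1.57 in mutants (5.98 to 10.04). Wild-type embryo 3, the highest of its group, lay above mutant embryos 3 and 4, and the other wild types lay below all mutants.

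The exons of Gm45352 share 213 bases with Sorcs1 exons, 6.39% of the exon sequence of Gm45352 and 2.52% of that of Sorcs1. The strand setting of the counting is not given in the sources used here, and the other exonic bases of Gm45352 lie in Sorcs1 introns, which unspliced Sorcs1 RNA would also cover. Without strand, reads of the 2 genes cannot be told apart, and the Gm45352 difference is not separate evidence beside that of Sorcs1. The 203-base exon of Gm45352 with the longest overlap lies at chr19:50175983-50176185 (GRCm38, plus strand, read from the GENCODE M21 reference). It is shown because it is where both annotations meet, with the 113 bases opposite a Sorcs1 exon in capitals.
Gm45352: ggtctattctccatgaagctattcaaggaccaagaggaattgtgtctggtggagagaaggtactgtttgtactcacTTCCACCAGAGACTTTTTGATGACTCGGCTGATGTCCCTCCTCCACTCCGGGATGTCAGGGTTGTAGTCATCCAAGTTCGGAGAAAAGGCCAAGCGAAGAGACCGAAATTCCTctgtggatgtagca

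**Figure D3:**
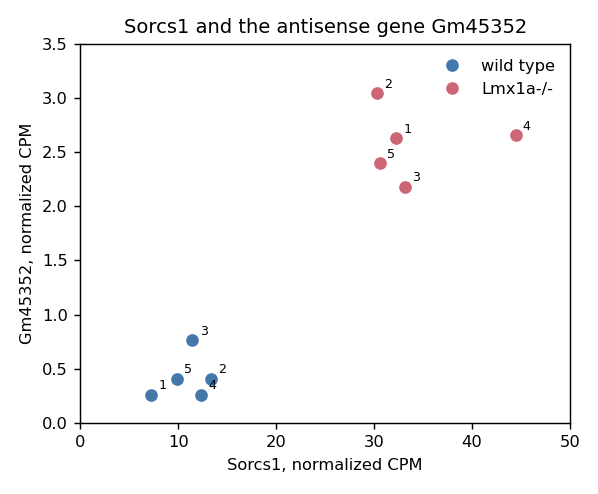
Gm45352 (vertical axis) against Sorcs1 (horizontal axis) in normalized CPM, with 1 numbered point per embryo. The wild types lie between 0.259 and 0.765 CPM of Gm45352 and the Lmx1a-/- embryos between 2.18 and 3.04, in separate groups on both axes.

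Other genes overlap the members as well. Gm43099, an unclassified transcript on the same strand as Sort1, had 57 to 183 counts. On the opposite strand, Gm26629 overlaps Sorcs1, Psapl1 overlaps Sorcs2, Gm12523 overlaps Sort1 and Gm16214 overlaps Sorl1, each with at most 32 counts in any library.

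Genes whose pattern over the 10 libraries was closest to that of Sorcs1 were ranked by the root mean square difference of centered log2(CPM + 1) values, a description that mostly follows the genotype difference Sorcs1 was chosen on. Over 16716 genes the median distance was 0.859. The 5 nearest were Gm45352 (0.284), the cAMP phosphodiesterase Pde4b (0.300), Gm45904 (0.316), the vesicle zinc protein Tmem163 (0.329) and the dynein intermediate chain Dync1i1 (0.332). With a pseudocount of 0.5 in place of 1, 3 of these 5 were again among the nearest 5. Pde4b was 15.1 ± 1.84 CPM in wild type and 39.9 ± 7.20 in mutants. Among the family, Sorl1 was nearest at rank 2197, and Sort1, Sorcs3 and Sorcs2 followed at ranks 8734, 14218 and 14835.

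The partners of the family were described through 5 lists with 54 genes, of which 52 were tested. With edgeR's quasi-likelihood test 0 were higher and 1 was lower in mutants, 8 had an unadjusted p below 0.05, DESeq2 called 4 and the likelihood ratio test called 1. These are 15.4%, 7.69% and 1.92% of the list genes, against 16.4%, 8.15% and 6.28% of all genes, so the lists did not exceed the background. The counts for the single lists that follow are to be read against the same shares of all genes. The median log2 fold change over the lists was -0.033, against -0.005 over all genes tested.

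Of 10 ligand genes 9 were tested, and 0 passed the threshold by the quasi-likelihood test, with 1 at an unadjusted p below 0.05, 1 called by DESeq2 and 0 by the likelihood ratio test (11.1%, 11.1% and 0% of the list). The log2 fold change was negative for 8 of the 9, with a median of -0.75, but the 4 neurotrophins among them averaged below 2 CPM in both groups. Ntf3, which encodes neurotrophin-3, had 1.78 ± 1.84 CPM in wild type and 0.419 ± 0.307 in mutants (log2 fold change -2.04, SE 0.76, FDR 0.196). Most of that wild-type mean came from embryo 4, at 4.98 CPM, while the other wild types had 0.485 to 1.49. The lipoprotein lipase gene Lpl had 19.5 ± 3.06 and 23.5 ± 4.84 CPM (FDR 0.415). Neurotensin (Nts) reached at most 26 counts in any library and was not tested.

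Among the neurotrophin receptors, Ntrk2, which encodes the BDNF receptor TrkB, was lower in mutants. Its CPM was 88.7 to 153 in wild types and 57.0 to 75.6 in mutants, without overlap, at a log2 fold change of -0.87 (SE 0.13, FDR 0.00373). The p75 gene Ngfr had 10.1 ± 4.80 and 6.92 ± 8.20 CPM (FDR 0.760), a spread too wide to place a difference in either direction. Ntrk3 had 53.9 ± 23.3 and 64.6 ± 19.1 CPM (FDR 0.695).

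Of 19 genes for the retromer, sorting nexins and adaptors, which return or forward these receptors inside the cell, 0 passed the quasi-likelihood test. In this list 3 had an unadjusted p below 0.05, DESeq2 called 2 and the likelihood ratio test 0 (15.8%, 10.5% and 0% of the list), and the median log2 fold change was 0.009. The retromer subunit Vps35 had 90.3 ± 3.47 CPM in wild type and 89.3 ± 3.18 in mutants. The adaptor genes with the smallest p were Ap1m1, with 39.4 ± 2.99 and 32.6 ± 2.79 CPM (log2 fold change -0.27, FDR 0.151), and Ap2a1, with 11.2 ± 1.10 and 7.65 ± 2.28 CPM (-0.55, FDR 0.185).

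The 9 genes for proteases that cleave pro-neurotrophins or shed receptor ectodomains held 0 calls by the quasi-likelihood test, DESeq2 or the likelihood ratio test, and 1 unadjusted p below 0.05. That gene was Furin, a proprotein convertase, with 15.1 ± 2.57 and 11.2 ± 1.87 CPM (log2 fold change -0.42, SE 0.16, FDR 0.210).

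Cargo of the family, including amyloid precursor proteins and AMPA receptor subunits, held 0 calls among 12 genes by all 3 tests and 2 unadjusted p below 0.05 (16.7% of the list, against 16.4% of all genes), with a median log2 fold change of 0.10. The insulin receptor gene Insr had 144 to 161.6 CPM in wild types and 161.8 to 194 in mutants, which did not overlap (log2 fold change 0.17, SE 0.07, FDR 0.246). Aplp1, a relative of the amyloid precursor protein gene, had 42.3 ± 7.38 and 34.4 ± 3.38 CPM (log2 fold change -0.30, FDR 0.237). App itself had 157 ± 6.08 and 168 ± 8.11 CPM (FDR 0.468).

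**Figure D4:**
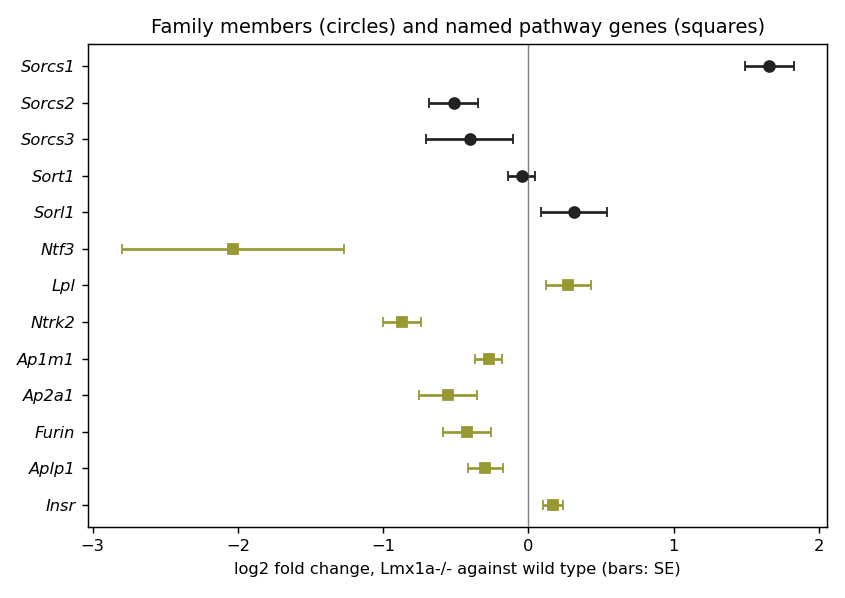
Log2 fold change of Lmx1a-/- against wild type (horizontal axis) for the 5 members (circles) and the named partner genes (squares), with bars for the SE. Sorcs1 lies at 1.66, Ntrk2 at -0.87 was the single partner gene past the FDR threshold, and Sort1 lies at -0.05.

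Several marker lists differed between genotypes, in part with overlapping sums. Marker levels in bulk tissue do not tell a change in tissue make-up from a change in RNA per cell. The part of tissue make-up in the Sorcs1 difference was not tested. The 7 markers of cortical and hippocampal neuroepithelium, the tissue beside CH, summed to 387 to 787 CPM in wild types and 741 to 966 in mutants, and 3 of them passed as higher. The 10 choroid plexus markers summed to 117 to 470 and 143 to 216 CPM, with 2 of 9 tested lower and with Kcne2 and Kl at 0 in some libraries. The 8 Cajal-Retzius cell markers summed to 294 to 480 and 190 to 277 CPM, with 3 of 7 tested lower and 1 higher, and Calb2 at 0 in some libraries. Of the 10 CH markers 5 were lower and 1, Lmx1a, was higher.

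The 6 red blood cell markers summed to 598 to 1321 CPM in wild types and 252 to 546 in mutants, without overlap, but 0 of the 6 passed the threshold. Hbb-y was the most abundant, with means of 565 CPM in wild type and 300 in mutants. Alas2 alone had a higher mean in mutants, 14.9 against 12.5 CPM. Of 6 markers of meninges and mesenchyme 2 were lower, with sums of 263 to 857 and 212 to 465 CPM. In wild-type embryo 3 the neuroepithelium sum, 787 CPM, was within the range of the mutants and the choroid plexus sum, 117 CPM, was below all mutants, while the Cajal-Retzius sum, 294 CPM, was above all mutants. Sorcs1 was 11.4 CPM in that embryo, which is among the values the gene was chosen on. From that embryo alone nothing follows about tissue make-up, whose part in the Sorcs1 difference was not tested. The sums of 8 neuronal and 5 thalamic markers overlapped between genotypes, at 898 to 1355 against 944 to 1418 CPM for neurons and 98.7 to 170 against 103 to 170 CPM for thalamus.

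**Figure D5:**
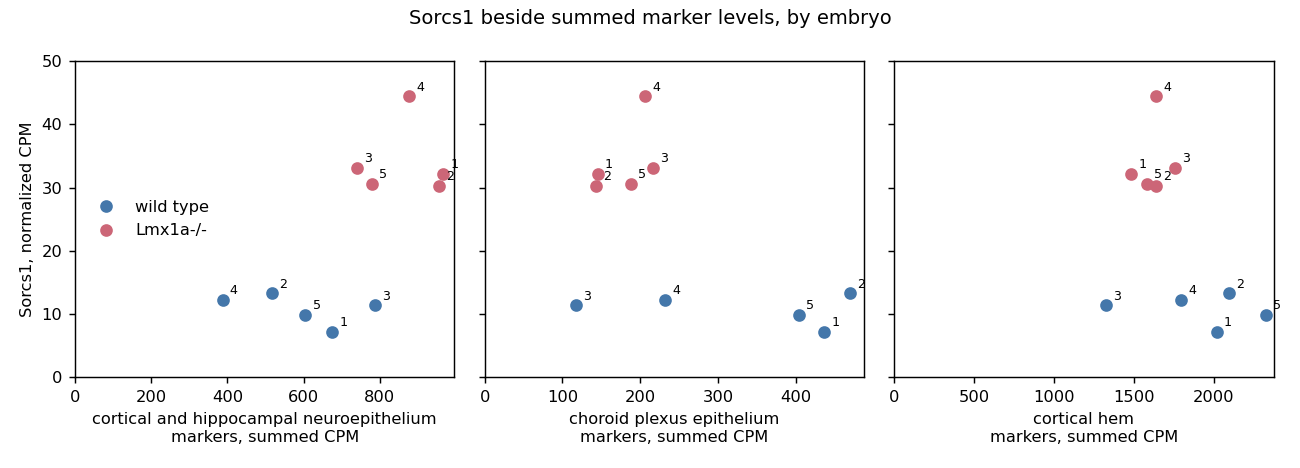
Sorcs1 in normalized CPM (vertical axis) against the summed CPM of marker lists (horizontal axes) for neuroepithelium, choroid plexus epithelium and CH, with 1 numbered point per embryo. The neuroepithelium sums were 387 to 787 CPM in wild types and 741 to 966 in mutants, the choroid plexus sums 117 to 470 and 143 to 216, and the CH sums 1326 to 2325 and 1485 to 1756.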

How the data were processed

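RNA-seq libraries, 1 per embryo, came from the CH of 5 Lmx1a-/- and 5 wild-type mice, and genotype and embryo number came from the sample labels. The authors used Trimmomatic for trimming, STAR 2.7.1a for alignment to GRCm38 and HTSeq 0.11.2 for counting per gene, and the deposited values are these raw counts. The strand setting is not given in the sources used here. Of 52508 rows, all naming a gene, 281 were exact repeats and were dropped. Symbols, positions and lengths came from GENCODE M21.

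Genes that reached 10 counts in 3 or more libraries entered the quasi-likelihood test of edgeR 4.0.16 in R 4.3.3, with TMM scaling, all 10 libraries and no covariate. P-values were adjusted by Benjamini-Hochberg over all 21664 genes, with an FDR threshold of 0.1. DESeq2 1.42.0 and the edgeR likelihood ratio test served as alternatives. Intervals are 95% intervals of the fit. Normalized CPM are TMM-scaled. The tests were checked on simulated counts, in which DESeq2 and the likelihood ratio test made a larger share of false calls than the quasi-likelihood test. These alternatives also recovered a larger share of the genes simulated to change.

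The members and lists were chosen with earlier results of these data known. Named genes were the members, list genes past the threshold or otherwise the 2 with the smallest p, the 5 genes most like Sorcs1, and tested genes within 2 Mb of it. Some list genes are not reported here. Ngfr, Ntrk3, Vps35, App and the genes overlapping members are named outside this rule, chosen after their values were seen. P-values measure only the spread between these embryos.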

Additional observations from a re-analysis of the deposited data

Results flagged for a closer look

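Each group of 5 embryos was checked for a library far from the rest, in 19 genes and 38 groups, and 3 groups stood out by Dixon's criterion. Chance flags about 1 in 20 groups. Sorcs1 in mutant embryo 4 was 44.45 CPM, while the other mutants had 30.33 to 33.15. Ntf3 in wild-type embryo 4 was 4.982 CPM, while the other wild types had 0.4853 to 1.488. Insr in mutant embryo 2 was 193.5 CPM, while the other mutants had 161.8 to 169.4.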

How the results depend on the processing

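Over 23 alternatives the log2 fold change of Sorcs1 was 1.54 to 2.26, of Sorcs2 -0.61 to -0.30 (FDR 0.0479 to 0.787), of Sorcs3 -1.02 to -0.08, of Sort1 -0.10 to 0.08 and of Sorl1 -0.06 to 0.62. Sorcs1 moved to 2.26 with an Xist covariate and to 2.24 in the 6 libraries with Y-linked transcripts. With DESeq2, Sorcs2 passed at -0.51, and 8.15% of all genes tested passed with that test. Leaving out each embryo in turn gave -0.61 to -0.40 for Sorcs2 and -0.56 to -0.08 for Sorcs3. The same fits gave 0.15 to 0.51 for Sorl1 and -0.0993 to 0.0071 for Sort1. In them 1 to 2 members passed the threshold, with 2 only without mutant embryo 1. These counts include Sorcs1 in every fit, which follows from its choice, and the other member without mutant embryo 1 was Sorcs2. That fit called 425 genes higher and 471 lower among 21366 tested. Sort1 changed sign, far from the threshold, at 0.0834 with the choroid plexus covariate and 0.0034 with the neuroepithelium covariate, and Sorl1 at -0.0565 with the choroid plexus covariate. Both covariates ran with genotype (correlations -0.72 for choroid plexus and 0.74 for neuroepithelium), and the cause of the sign changes was not tested. The Y-linked subset and the neuroepithelium covariate were chosen after seeing the data. Counts over all genes (373 higher and 497 lower) were 790 and 976 with DESeq2, 555 and 805 with the likelihood ratio test, 6 and 30 with Xist, 92 and 67 with choroid plexus and 21 and 32 with neuroepithelium as covariates, 44 and 86 in the Y-linked subset and 190 and 261 without mutant embryo 4. Embryo numbers gave no sign of pairing the samples, with correlations of deviations from -0.155 to 0.0416. The authors compared mutants with wild-type littermates, but the sample labels give no litter, so litter could not enter the fit. A replicate block gave Sorcs1 1.67, 248 genes higher and 353 lower, and none of Sorcs2, Sorcs3, Sort1 and Sorl1 passed.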
